A study of Mus musculus with 16 samples.

Results

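Fga, Fgb and Fgg encode the Aα, Bβ and γ chains of fibrinogen, the soluble plasma protein that thrombin turns into fibrin. They were chosen by name as the complete set of fibrinogen chain genes, 3 of the 56980 gene identifiers of the count table, under ENSMUSG00000028001 for Fga, ENSMUSG00000033831 for Fgb and ENSMUSG00000033860 for Fgg, and 3 of 3 passed the filter on low counts that left 17972 genes for testing. The tissue was kidney cortex of male C57Bl/6J mice, and its RNA was sequenced in bulk. iGKO mice carried floxed Degs1 alleles and Rosa26-CreERT2, a tamoxifen-activated Cre recombinase expressed from a ubiquitous promoter, so that Degs1 is removed throughout the body and not in the kidney alone. Degs1fl/fl littermates (fl/fl) carried the floxed alleles. Degs1 encodes dihydroceramide desaturase, the last enzyme of de novo ceramide synthesis. Mice of both genotypes received 3 mg tamoxifen on 5 days at 9 weeks of age and were operated on at 12 weeks. Ischaemia-reperfusion injury (IRI) stopped the blood flow of both kidneys with clamps for 28 min, and tissue was taken after 24 h of reperfusion. Sham surgery was the same without the clamps. The 16 libraries formed 4 groups of 4, namely iGKO IRI, fl/fl IRI, iGKO sham and fl/fl sham, and a library is named here by its group and replicate number. The labels do not say whether a library is 1 mouse, so p-values measure the spread between these samples.

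Libraries held 12704273 to 18816343 gene-assigned reads. Levels are given in CPM, read counts relative to the library size after scaling by trimmed mean of M-values (TMM). The proximal tubule phosphate transporter Slc34a1 reached at least 729 CPM and Umod, the uromodulin gene of the thick ascending limb, at least 675 CPM in every library. Degs1 averaged 54.5 ± 6.81 CPM in iGKO IRI and 113 ± 18.2 CPM in fl/fl IRI, and 57 ± 14.3 CPM in iGKO sham and 100 ± 12.3 CPM in fl/fl sham (SD, n = 4 each), with at least 40.2 CPM left in every iGKO library. Mitochondrially encoded genes took 0.443% of the reads of iGKO sham 4, against 2.05 to 6.48% elsewhere. In bulk tissue, fewer cells of a type and less RNA per cell cannot be told apart, and the same holds for more.

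Fibrinogen is assembled from paired Aα, Bβ and γ chains inside the cell and then secreted. Hepatocytes are the main source, and fibrinogen is a classic acute-phase protein whose genes respond to interleukin-6 through STAT3 together with C/EBP and HNF1 proteins. In human hepatoma cells the Bβ chain has been found to limit assembly. Injured kidney tubule cells are a known extrahepatic source, and fibrin also forms in injured kidney when plasma fibrinogen leaks and clots.

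The 3 genes lie side by side on mouse chromosome 3 in the order Fgg, Fga and Fgb, with Fgb on the opposite strand to the others. Because the genes moved together in the data below, the 250 bases before each start site are shown, from RefSeq on build GRCm38.p6, the build of that table and not the GRCm39 build named for the counts. Capitals mark CTGGGA, the core of interleukin-6 response elements, and GTTAAT, part of the HNF1 palindrome, which reads ATTAAC where it lies on the other strand. The regions are chr3:83025903-83026152 on the plus strand for Fga, chr3:83049864-83050113 on the minus strand for Fgb and chr3:83007474-83007723 on the plus strand for Fgg, each written 5′ to 3′ along its gene.
Fga: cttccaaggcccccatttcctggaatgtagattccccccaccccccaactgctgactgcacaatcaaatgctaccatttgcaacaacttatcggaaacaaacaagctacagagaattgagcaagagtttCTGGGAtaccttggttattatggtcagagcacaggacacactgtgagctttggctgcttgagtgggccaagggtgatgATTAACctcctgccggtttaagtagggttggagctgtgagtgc
Fgb: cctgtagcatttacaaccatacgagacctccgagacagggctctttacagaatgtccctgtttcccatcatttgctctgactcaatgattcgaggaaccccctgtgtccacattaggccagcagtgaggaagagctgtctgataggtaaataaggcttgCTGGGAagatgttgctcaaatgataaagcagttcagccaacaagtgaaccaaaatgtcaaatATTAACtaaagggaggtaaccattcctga
Fgg: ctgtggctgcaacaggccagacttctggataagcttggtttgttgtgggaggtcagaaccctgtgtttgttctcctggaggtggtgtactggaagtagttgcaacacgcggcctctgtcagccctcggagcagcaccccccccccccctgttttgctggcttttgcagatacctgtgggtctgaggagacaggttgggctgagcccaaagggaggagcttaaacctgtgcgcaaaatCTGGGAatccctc
CTGGGA was present in 3 of 3 promoters, at bases -121 to -116 from the start site in Fga, -91 to -86 in Fgb and -13 to -8 in Fgg. On either strand, 27% of all 32851 promoter windows of this length held it. GTTAAT lay on the minus strand of Fga at -43 to -38 and of Fgb at -29 to -24, and 6.43% of windows held it. TTNCNCAA, a C/EBP-type motif, matched in Fga and Fgb and in 11.7% of windows. TTCNNNGAA, the palindrome bound by STAT proteins, also matched in Fga and Fgb and in 7.02% of windows. Both strands were searched for each motif and no matches overlapped. Such matches describe the letters of these windows and nothing about binding.

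After IRI, RNA of all 3 fibrinogen chains rose in fl/fl kidneys. Fga, the gene of the Aα chain whose end thrombin cuts off as fibrinopeptide A, stood at 183, 1009.6, 569 and 2421.3 CPM in fl/fl IRI libraries 1 to 4, against 25.4, 50.0, 36.2 and 80.8 CPM in fl/fl sham libraries 1 to 4. Every fl/fl IRI library was above every fl/fl sham library, and fl/fl IRI 1 was the lowest of its group and fl/fl IRI 4 the highest. The log2 fold change was 4.44 ± 0.77 (SE; 21.7-fold), with an adjusted p of 0.00218 (edgeR quasi-likelihood test, Benjamini-Hochberg over all 17972 genes). Fgb, the gene of the Bβ chain, was the scarcest of the chains in each library, with 35.3, 279, 200 and 697 CPM in fl/fl IRI and 1.19, 8.04, 2.73 and 6.50 CPM in fl/fl sham. Its groups did not overlap either, and its log2 fold change was 6.02 ± 0.97 (65-fold; adjusted p = 0.00152). Fgg, the gene of the γ chain, which carries sites for fibrin cross-linking and for leukocyte integrin, had 105, 597, 343 and 1631.1 CPM in fl/fl IRI and 13.4, 22.0, 22.4 and 59.6 CPM in fl/fl sham. Again no fl/fl IRI library reached down to the fl/fl sham range, and the log2 fold change was 4.51 ± 0.87 (22.8-fold; adjusted p = 0.00396). In this comparison 15.5% of tested genes were called, 8.46% higher and 7.01% lower, and 9.65% were higher without overlap, while the median log2 fold change of all tested genes was 0.01. fl/fl IRI 4 set much of the size, since without it the log2 fold changes were 3.61 for Fga, 5.20 for Fgb and 3.57 for Fgg, still past the threshold, with adjusted p of 0.00562, 0.00347 and 0.0107. Over all alternatives the adjusted p ranged up to 0.0166 for Fga, 0.0145 for Fgb and 0.0193 for Fgg.

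**Figure D1:**
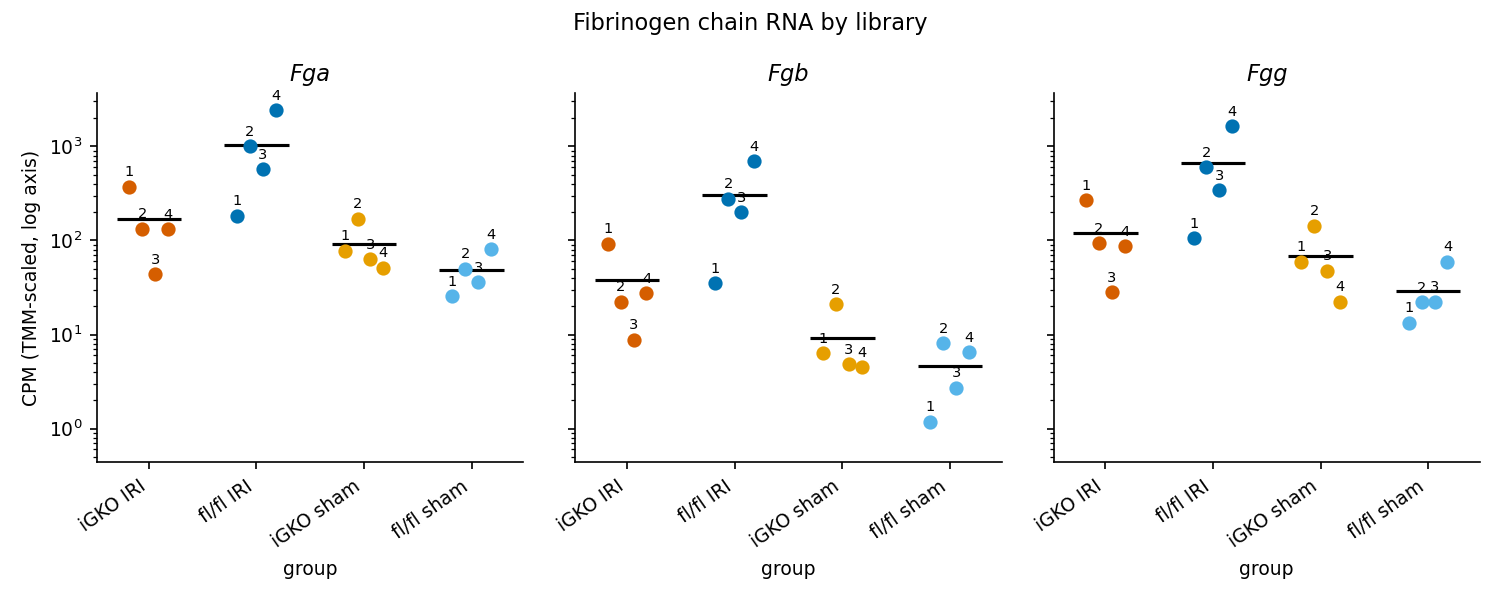
CPM of Fga, Fgb and Fgg on a log axis in each library, in 4 groups of 4, with the replicate number above each point and the group mean as a black line. All fl/fl IRI points lie above all fl/fl sham points in each panel, whereas iGKO IRI points overlap those of iGKO sham.

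In iGKO kidneys the chains did not pass the test after IRI. Fga had 372, 133, 44.0 and 132 CPM in iGKO IRI libraries 1 to 4, against 78.2, 171, 63.4 and 51.6 CPM in iGKO sham libraries 1 to 4. The ranges overlapped, and iGKO IRI 1 alone exceeded the highest iGKO sham library. Fgb had 92.0, 22.4, 8.78 and 27.7 CPM in iGKO IRI and 6.31, 21.0, 4.81 and 4.51 CPM in iGKO sham. Here 3 of the 4 iGKO IRI libraries were above every iGKO sham library, and iGKO IRI 3 fell below iGKO sham 2. Fgg had 266, 93.1, 28.3 and 87.0 CPM in iGKO IRI and 59.5, 143, 47.6 and 22.3 CPM in iGKO sham, with only iGKO IRI 1 outside the sham range. The log2 fold changes were 0.90 ± 0.67 for Fga, 2.03 ± 0.82 for Fgb and 0.80 ± 0.76 for Fgg (adjusted p = 0.948, 0.703 and 0.976). Single libraries moved these values, to 0.17, 1.09 and 0.03 for Fga, Fgb and Fgg without iGKO IRI 1 and to 1.40, 2.85 and 1.46 without iGKO sham 2. By edgeR no gene was called in this comparison (0%), 1145 genes had an unadjusted p under 0.05, and DESeq2 called 43 genes.

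The difference between these responses was tested as an interaction and did not pass. It was -3.54 ± 0.97 for Fga, -3.99 ± 1.17 for Fgb and -3.71 ± 1.10 for Fgg on the log2 scale, iGKO response minus fl/fl response (adjusted p = 0.262, 0.271 and 0.271). edgeR called 0% of all genes for the interaction, with 2033 at an unadjusted p under 0.05 and 113 called by DESeq2. Without fl/fl IRI 1, the interaction passed for all 3 chains, with adjusted p of 0.0202 for Fga, 0.0284 for Fgb and 0.0325 for Fgg, and 776 genes were called. fl/fl IRI 1 also stood apart from its group in the tubule injury gene Havcr1 (KIM-1), with 101 CPM, where the rest of that group had 710 to 1665.8 CPM. It lay within the range of the iGKO IRI libraries, which had 84, 104, 28 and 122 CPM of Havcr1. Whether tubule injury has a part in the effect of leaving out that library was not tested. Over the alternatives the adjusted p reached 0.522 for each chain.

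Directly compared after IRI, the iGKO group had lower mean levels of each chain, within overlapping ranges. Fga averaged 170 ± 141 CPM in iGKO IRI and 1045.6 ± 977 CPM in fl/fl IRI, Fgb 37.7 ± 37 CPM in iGKO IRI and 303 ± 282 CPM in fl/fl IRI, and Fgg 119 ± 103 CPM in iGKO IRI and 669 ± 672 CPM in fl/fl IRI (SD, n = 4 each). For each chain, iGKO IRI 1 lay above fl/fl IRI 1 and the other 3 iGKO IRI libraries lay below all fl/fl IRI libraries. The log2 fold changes were -2.62 ± 0.70, -3.01 ± 0.83 and -2.50 ± 0.79 for Fga, Fgb and Fgg (adjusted p = 0.0776, 0.0849 and 0.119), against 0.673% of all genes called lower and 3.04% lower without overlap. Without fl/fl IRI 1 all 3 passed, with adjusted p of 0.00694, 0.00815 and 0.0185, and DESeq2 also called Fga (adjusted p = 0.0191) and Fgb (adjusted p = 0.023). Over the alternatives the adjusted p reached 0.321 for Fga, 0.321 for Fgb and 0.41 for Fgg.

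After sham surgery the chains were low in both genotypes. Fga averaged 91.1 ± 54.6 CPM in iGKO sham and 48.1 ± 24 CPM in fl/fl sham, Fgb 9.17 ± 7.95 CPM in iGKO sham and 4.61 ± 3.19 CPM in fl/fl sham, and Fgg 68.2 ± 52.4 CPM in iGKO sham and 29.4 ± 20.6 CPM in fl/fl sham. The groups overlapped for each chain, with log2 fold changes of 0.92 ± 0.67, 0.98 ± 0.85 and 1.21 ± 0.77 (adjusted p = 0.9999 for each). Without iGKO sham 2 they were 0.42, 0.16 and 0.56, and without fl/fl sham 4 they were 1.29, 1.18 and 1.82. No gene was called in this comparison by edgeR (0%) or DESeq2, and 210 had an unadjusted p under 0.05. Degs1 itself was therefore not called, although its 40.2 to 71.7 CPM in iGKO sham lay below the 84 to 113 CPM of fl/fl sham. A missing call in this comparison does not show equal levels. The order of the group means was thus the same for each chain, fl/fl IRI first, then iGKO IRI, iGKO sham and fl/fl sham, and none of the 3 steps between neighbours in that order passed the test for any chain. The highest sham library for each chain was iGKO sham 2, which was also the highest sham library for Havcr1, at 126 CPM against 4.15 to 24.7 CPM in the other sham libraries. Whether tubule injury has a part in the level of that library was not tested.

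**Figure D2:**
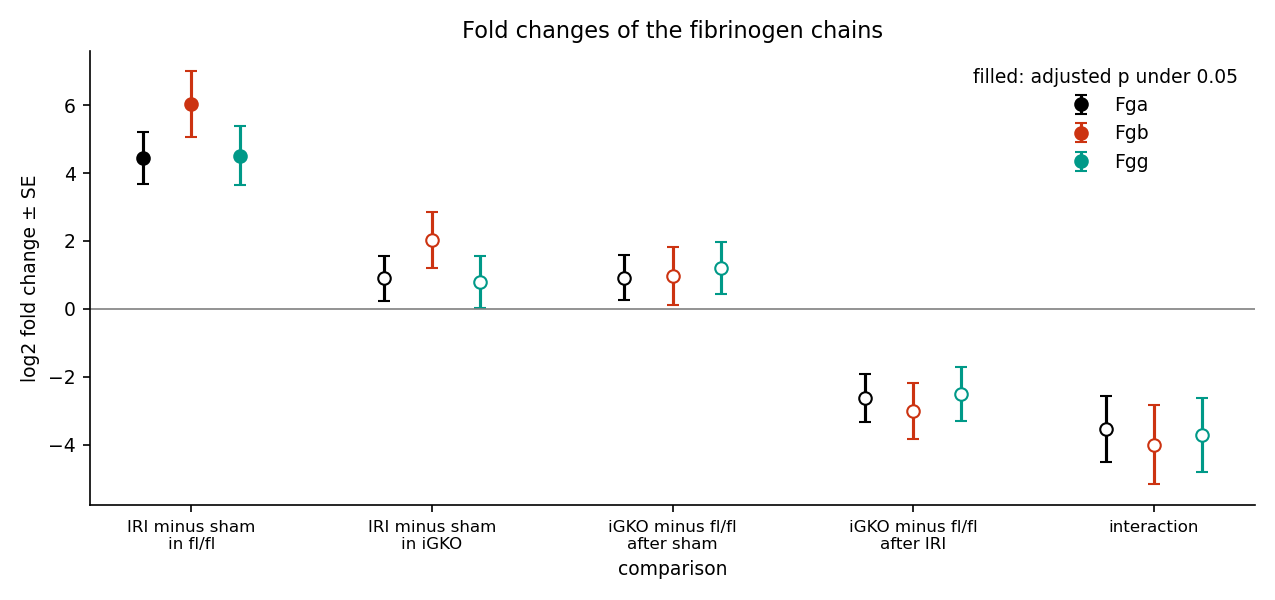
log2 fold changes of Fga, Fgb and Fgg in the 5 comparisons, with bars of 1 SE. Filled points, found only for IRI minus sham in fl/fl, passed an adjusted p of 0.05, and the interaction is the iGKO response minus the fl/fl response.

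The chains varied together from library to library. Over the 8 IRI libraries, log2 CPM of Fga and Fgg correlated with Pearson's r = 0.998 (adjusted p = 0.000198) and Spearman's rho = 1.000 (adjusted p = 0.000298, exact permutation tests adjusted over 6 relations). For Fga and Fgb r was 0.994 (adjusted p = 0.000198) and rho 0.976 (adjusted p = 0.000794), and for Fgg and Fgb r was 0.990 (adjusted p = 0.000198) and rho 0.976 (adjusted p = 0.000794), by the same exact permutation tests. Without the 2 libraries farthest from the median these were 0.994, 0.990 and 0.984. Raw p was 4.96e-05, the smallest these permutations can give, for Fga with Fgg by both measures, and 9.92e-05 (r) and 0.000397 (rho) for the other pairs. In the 8 sham libraries the chains still varied together, with r = 0.967 and rho = 0.929 for Fga and Fgg (raw exact permutation p = 0.000446 and 0.00223, adjusted p = 0.00067 and 0.00335) and r = 0.902 without the 2 farthest libraries. For Fga and Fgb in sham r was 0.932 and rho 0.762 (raw exact permutation p = 0.00283 and 0.0368, adjusted p = 0.00339 and 0.0441), and r fell to 0.656 without the 2 farthest libraries. For Fgg and Fgb in sham r was 0.834 and rho 0.619 (raw and adjusted exact permutation p = 0.0109 and 0.115), and r fell to 0.361, so that relation rests on 2 libraries. Values of 1 library share its depth and scaling factor, and each set of 8 joins both genotypes.

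The proportion of Fgb to Fga was higher in IRI than in sham libraries of either genotype, although no ratio comparison passed after correction. In fl/fl IRI libraries 1 to 4 there were 19.3, 27.7, 35.2 and 28.8 Fgb reads per 100 Fga reads, against 4.67, 16.1, 7.53 and 8.04 in fl/fl sham. All fl/fl IRI libraries were above all fl/fl sham libraries, and the closest exact 95% counting intervals, 17.5 to 21.2 for fl/fl IRI 1 and 13.2 to 19.5 for fl/fl sham 2, overlapped. In iGKO IRI libraries the ratio was 24.7, 16.9, 20.0 and 21.0, against 8.06, 12.3, 7.58 and 8.75 in iGKO sham, also without overlap. The log2 ratio of Fga to Fgb, IRI minus sham, differed by -1.70 ± 0.40 in fl/fl and by -1.18 ± 0.19 in iGKO (exact permutation p = 0.0286 each, the smallest 4 against 4 allows). Adjusted over the 12 ratio comparisons made, p was 0.114 for each, so neither passed the correction, nor did any other of the 12. In iGKO kidneys the higher ratio stood beside Fga levels in the sham range. iGKO IRI 2, 3 and 4, with 133, 44.0 and 132 CPM of Fga, lay within the 25.4 to 171 CPM of the sham libraries, while their Fgb to Fga ratios exceeded the highest sham ratio, 16.1 in fl/fl sham 2. Their exact 95% counting intervals, 15.1 to 18.9, 16.5 to 24 and 18.9 to 23.4, all overlapped the 13.2 to 19.5 of fl/fl sham 2.

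**Figure D3:**
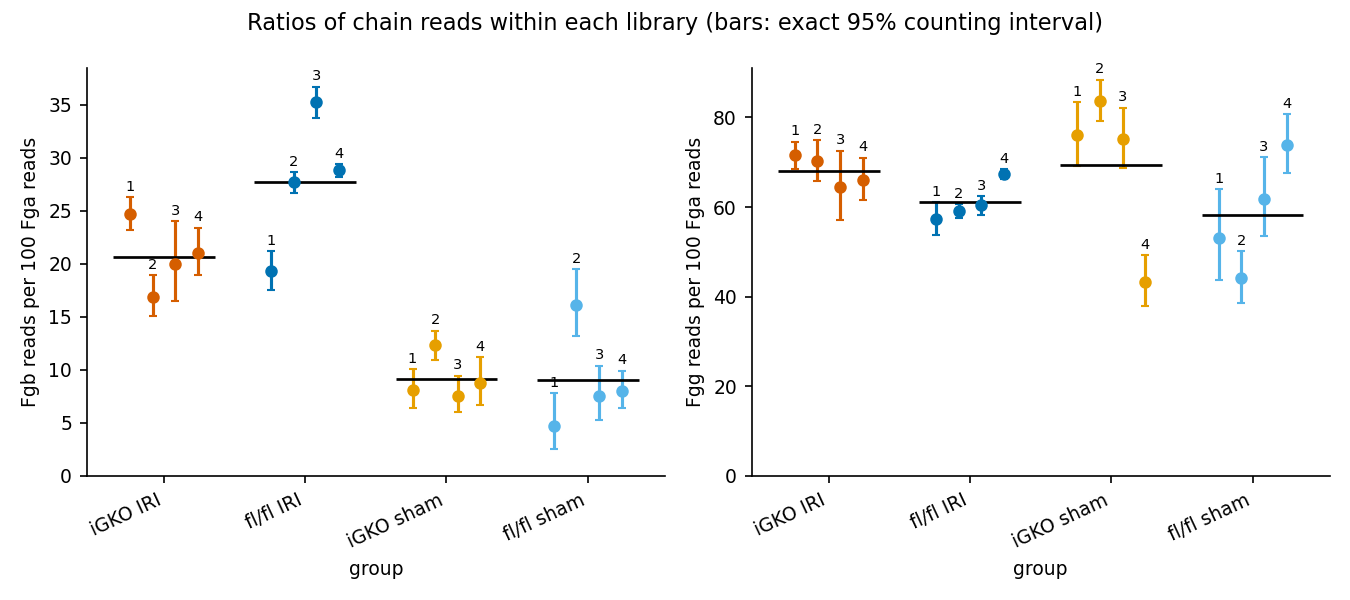
Fgb reads (left) and Fgg reads (right) per 100 Fga reads in each library, by group, with exact 95% counting intervals as bars, replicate numbers above and group means as black lines. The Fgb ratio is higher in IRI than in sham libraries of the same genotype, while the Fgg ratio overlaps between all groups.

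The proportion of Fgg to Fga differed less between IRI and sham. Per 100 Fga reads there were 71.5, 70.2, 64.4 and 66.1 Fgg reads in iGKO IRI, 57.4, 59.2, 60.4 and 67.4 in fl/fl IRI, 76.0, 83.6, 75.1 and 43.2 in iGKO sham and 53.0, 44.1, 61.8 and 73.8 in fl/fl sham. The IRI libraries lay within the spread of the sham libraries. The log2 ratio of Fga to Fgg differed by -0.09 ± 0.17 between fl/fl IRI and fl/fl sham (exact permutation p = 0.629, adjusted 0.838) and by -0.01 ± 0.22 between iGKO IRI and iGKO sham (exact permutation p = 1, adjusted 1). The iGKO value rests on iGKO sham 4, the library of few mitochondrial reads. Without it the difference was 0.20 ± 0.06, with 64.4 to 71.5 Fgg reads per 100 Fga reads in iGKO IRI and 75.1 to 83.6 in the other iGKO sham libraries, which did not overlap. Relative to Fgg, Fgb had 30.4 ± 4.47 reads per 100 Fgg reads in iGKO IRI and 13.9 ± 4.7 in iGKO sham, and 45.4 ± 10.2 in fl/fl IRI and 17.1 ± 13 in fl/fl sham (SD, n = 4 each). For the log2 ratio of Fgg to Fgb the differences were -1.17 ± 0.26 in iGKO (exact permutation p = 0.0286, adjusted 0.114) and -1.61 ± 0.48 in fl/fl, where fl/fl sham 2 with 36.5 overlapped fl/fl IRI 1 with 33.6 (exact permutation p = 0.0571, adjusted 0.137). Between iGKO and fl/fl after IRI, the log2 ratio differed by 0.40 ± 0.21 for Fga to Fgb (exact permutation p = 0.114, adjusted 0.196), by -0.16 ± 0.06 for Fga to Fgg (exact permutation p = 0.0857, adjusted 0.171) and by 0.56 ± 0.20 for Fgg to Fgb (exact permutation p = 0.0571, adjusted 0.137). After sham surgery these differences were -0.12 ± 0.39, -0.24 ± 0.27 and 0.12 ± 0.51 (exact permutation p = 0.771, 0.371 and 0.829, adjusted 0.904, 0.557 and 0.904). Counting intervals cover counting error only, since no molecular identifiers are stated.

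Per length, the Bβ transcript was the least abundant of the chains. On CPM per kilobase of annotated exon, Fga averaged 56.5 ± 46.9 in iGKO IRI, 347 ± 325 in fl/fl IRI, 30.3 ± 18.1 in iGKO sham and 16.0 ± 7.98 in fl/fl sham. Fgg was at a like level, with 56.7 ± 49 in iGKO IRI, 320 ± 321 in fl/fl IRI, 32.6 ± 25.1 in iGKO sham and 14.0 ± 9.83 in fl/fl sham. Fgb averaged 9.90 ± 9.72 in iGKO IRI, 79.5 ± 74 in fl/fl IRI, 2.41 ± 2.09 in iGKO sham and 1.21 ± 0.838 in fl/fl sham (SD, n = 4 each). Exon lengths were 3010 bases for Fga, 3810 for Fgb and 2093 for Fgg, in GENCODE M21. Per kilobase of coding sequence, a measure added after the data were seen, fl/fl IRI means were 442 for Fga, 210 for Fgb and 503 for Fgg, so Fgb stayed lowest but closer to the others. Together the 3 chains took 0.0327, 0.192, 0.12 and 0.443% of all gene-assigned reads in fl/fl IRI and 0.00381, 0.00759, 0.00612 and 0.0144% in fl/fl sham. In iGKO IRI they took 0.0775, 0.027, 0.00851 and 0.0246%, and in iGKO sham 0.0141, 0.0324, 0.011 and 0.00765%.

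RNA of hepatocytes and platelets was looked for through marker genes, because hepatocytes are the main source of these transcripts. Over 18 hepatocyte markers, summed CPM ranged over 81.9 to 147 in iGKO IRI, over 80.5 to 349 in fl/fl IRI, over 88.6 to 148 in iGKO sham and over 102 to 132 in fl/fl sham. fl/fl IRI 4, with the most fibrinogen RNA of all libraries, summed to 93.7 CPM, whereas fl/fl IRI 3 reached 349 CPM and also had the highest number of Fgb reads per 100 Fga reads, 35.2. Much of the sum in most libraries was Ttr, the transthyretin gene, with 33 CPM in fl/fl IRI 4 and 54.5 to 105 CPM in fl/fl sham. Without Ttr, a sum added after the data were seen, fl/fl IRI 4 had 60.7 CPM, fl/fl IRI 3 had 320 CPM and fl/fl sham libraries had 27.8 to 63 CPM, so that fl/fl IRI 4 lay within the fl/fl sham range. Of the 18 markers, 5 were above every fl/fl sham library in fl/fl IRI 4, 4 were below all of them and 9 lay within their range. Of the 18 markers Cyp3a11 was at 0 in fl/fl sham. Albumin (Alb) had 133 CPM in fl/fl IRI 3 and 5.95, 10.4 and 16.9 CPM in fl/fl IRI 1, 2 and 4, against 3.63 to 14.3 CPM in fl/fl sham, and 7.50 to 25.9 CPM in iGKO IRI against 7.92 to 33.6 CPM in iGKO sham. The fetuin gene Ahsg peaked in the same library, at 17.3 CPM and at most 1.48 CPM in any other, as did the apolipoprotein gene Apoa1, at 16.1 CPM and at most 3.17 CPM elsewhere, and the antitrypsin gene Serpina1b, at 14.3 CPM and at most 11.8 CPM elsewhere. In fl/fl kidneys after IRI, 8.46% of all tested genes were called higher and 7.01% lower. Of 15 tested hepatocyte markers, 1 was called higher and 0 lower (median log2 fold change 1.26). The count was 0 without fl/fl IRI 3 or any 1 fl/fl sham library, 8 without fl/fl IRI 1, 3 without fl/fl IRI 2 or iGKO sham 4, and 2 without fl/fl IRI 4 or iGKO IRI 4. That one was Cyp2c29, a cytochrome P450 gene, whose level was 12.4 CPM in fl/fl IRI 3 and at most 2.1 CPM elsewhere and whose adjusted p without fl/fl IRI 3 was 0.613, the highest of its alternatives. Without fl/fl IRI 3 the log2 fold changes of the chains between fl/fl IRI and fl/fl sham were 4.65 for Fga (adjusted p = 0.00395), 6.18 for Fgb (adjusted p = 0.00369) and 4.73 for Fgg (adjusted p = 0.00709), and the log2 Fga to Fgb ratio difference was -1.58 ± 0.40. Platelets carry fibrinogen protein, and 10 platelet markers summed to 16.3 to 24.1 CPM in iGKO IRI, 9.40 to 22.1 in fl/fl IRI, 7.36 to 16.4 in iGKO sham and 9.08 to 13.2 in fl/fl sham. The chemokine genes Pf4 and Ppbp of platelets were at their lowest among IRI libraries in fl/fl IRI 4, with 1.52 and 0.126 CPM, and Gp1bb and Gp6 were at 0 in at least 1 group. Not all platelet markers were low in fl/fl IRI 4. Itga2b had 6.45 CPM there, against 7.45, 4.06 and 3.34 CPM in fl/fl IRI 1, 2 and 3. Gp5 was highest of that group there, at 0.885 CPM (14 reads), and the remaining markers had at most 0.19 CPM. Of the 3 platelet markers tested, 0 were called in fl/fl after IRI (median log2 fold change 0.91), against 15.5% of all tested genes.

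**Figure D4:**
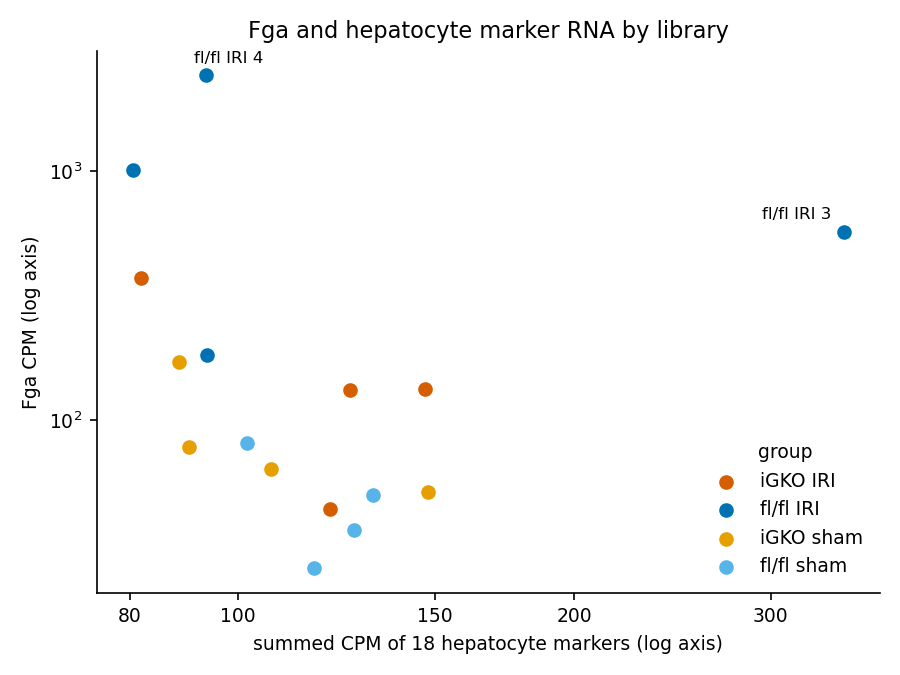
Fga CPM against the summed CPM of 18 hepatocyte markers in each library, both on log axes, coloured by group. fl/fl IRI 4 has the highest Fga at a marker sum of 93.7 CPM (60.7 CPM without Ttr, against 27.8 to 63 CPM in fl/fl sham), and fl/fl IRI 3 stands alone at 349 CPM.

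Several genes listed for interleukin-6 family signalling and fibrinogen gene regulation were also higher in fl/fl kidneys after IRI. In that comparison 8.46% of all tested genes were called higher and 7.01% lower. Of 18 tested genes of this list (21 listed), 10 were higher after IRI, 0 were lower and 8 did not pass, with a median log2 fold change of 1.17. Among those of smallest p was Clcf1, a cytokine of the interleukin-6 family, with 16.8, 68.6, 77.7 and 153 CPM in fl/fl IRI and 6.64 to 8.88 CPM in fl/fl sham (log2 fold change 3.36 ± 0.47, adjusted p = 0.000871). Socs3, a feedback inhibitor induced by STAT3, had 23.2, 45.9, 59.8 and 133 CPM in fl/fl IRI and 5.45 to 7.46 CPM in fl/fl sham (3.34 ± 0.47, adjusted p = 0.000871). The cytokine gene Lif rose by a log2 fold change of 3.97 ± 0.66 (adjusted p = 0.00179) and Stat3, the transcription factor itself, by 1.49 ± 0.26 (adjusted p = 0.00218). Within fl/fl IRI, Clcf1, Socs3 and Stat3 were lowest in library 1 and highest in library 4, whereas Lif, with 6.7, 14.9, 30.9 and 5.62 CPM in libraries 1 to 4, was lowest in library 4 and highest in library 3. Il6 itself had 0 to 38 reads per library and was not tested, nor were Foxa1 and Foxa2. The part of these genes in the chain levels was not tested. In iGKO kidneys after IRI edgeR called 0% of all genes, so 0 of 18 here and 0 of each list below. The median log2 fold change of the 18 was 0.24. Cebpb, a C/EBP factor, was at 1.09 ± 0.39 (adjusted p = 0.656) and Socs3 at 0.89 ± 0.44 (adjusted p = 0.798).

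**Figure D5:**
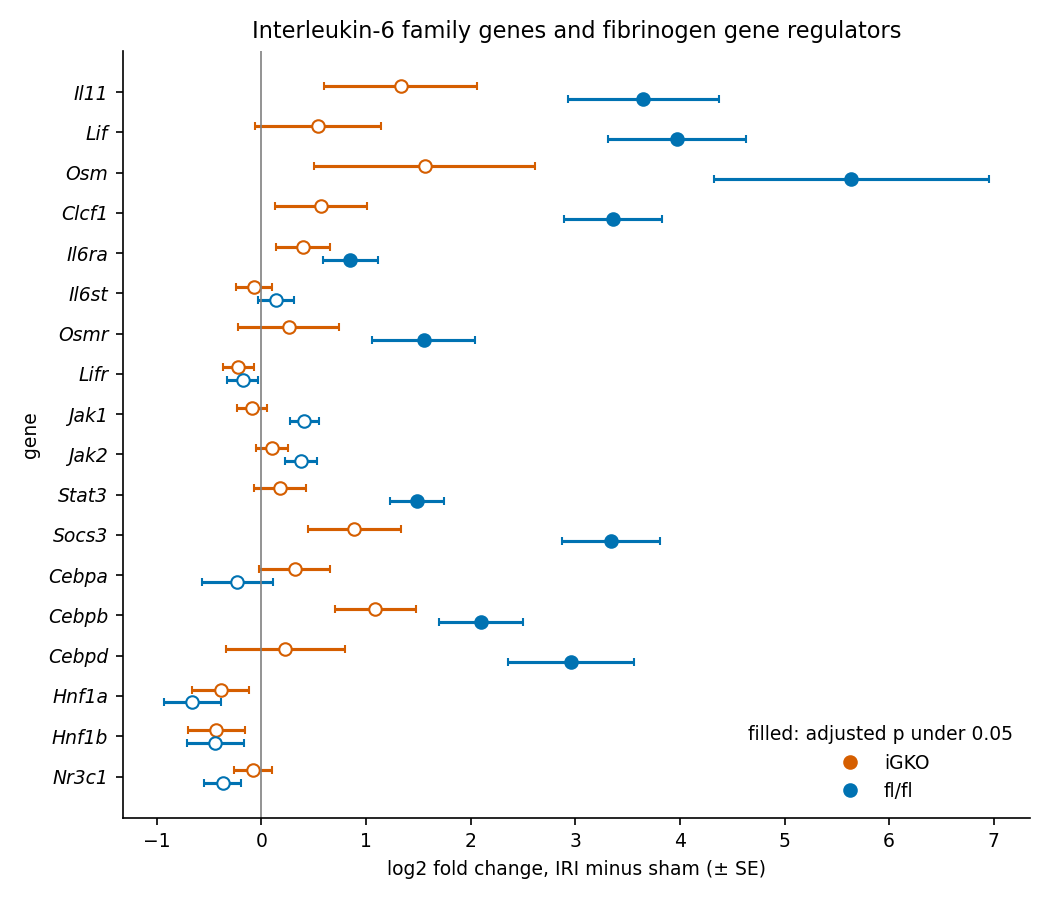
log2 fold change of IRI minus sham, with bars of 1 SE, for the 18 tested genes of interleukin-6 family signalling and fibrinogen gene regulation, in iGKO and in fl/fl kidneys. Filled points passed an adjusted p of 0.05, which was the case for 10 genes in fl/fl and 0 in iGKO.

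Some other acute-phase genes were higher as well. Of 15 tested genes (20 listed), 5 were higher and 0 lower in fl/fl after IRI, against 8.46% and 7.01% of all tested genes. The median log2 fold change of the 15 was 1.94. Without any 1 of the 4 fl/fl sham libraries or without fl/fl IRI 3, 3 were called. Lcn2, the iron-siderophore carrier NGAL, averaged 249 ± 157 CPM in fl/fl IRI and 10.3 ± 6.79 CPM in fl/fl sham (log2 fold change 4.60 ± 0.60, adjusted p = 0.000583). The glycoprotein gene Lrg1 rose by a log2 fold change of 2.18 ± 0.38 (adjusted p = 0.00223) and serum amyloid Saa1 by 4.20 ± 0.91 (adjusted p = 0.00722). Saa1 and Saa2 are near-identical paralogs whose reads may be split. Saa2 was called (adjusted p = 0.032), but had an adjusted p of 0.3 without fl/fl IRI 3 and also missed the threshold without any 1 of the fl/fl sham libraries. In iGKO kidneys 0 of 15 were called, with a median log2 fold change of 0.94.

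Several genes of the system that dissolves fibrin were higher in fl/fl kidneys. Of 11 tested plasminogen system genes (12 listed), 5 were higher and 0 lower after IRI, against 8.46% and 7.01% of all tested genes. The median log2 fold change of the 11 was 1.69, and 3 were called when the pair of groups was fitted alone. The urokinase receptor gene Plaur averaged 73.3 ± 45.2 CPM in fl/fl IRI and 3.91 ± 1.18 CPM in fl/fl sham (log2 fold change 4.23 ± 0.43, adjusted p = 0.000361). S100a10 and Anxa2, which together form a plasminogen-binding complex on the cell surface, rose by 1.88 ± 0.37 (adjusted p = 0.00455) and 2.02 ± 0.46 (adjusted p = 0.00964), the call on Anxa2 being lost at an adjusted p of 0.0508 with the pair fitted alone. In iGKO kidneys 0 of 11 were called, Plaur coming closest by p with 16.6 ± 5.79 CPM in iGKO IRI and 6.46 ± 1.65 CPM in iGKO sham (1.36 ± 0.39, adjusted p = 0.54).

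Genes of clotting factors and their inhibitors changed in both directions. Of 18 tested genes (23 listed), 4 were higher and 4 lower in fl/fl after IRI, against 8.46% and 7.01% of all tested genes. The median log2 fold change of the 18 was 0.19. The total of 8 became 3, 5, 3 and 2 without fl/fl sham 1, 2, 3 and 4, and 1 without fl/fl IRI 3. The call held in every alternative for Thbd, thrombomodulin, which binds thrombin and turns it towards protein C, with 103 ± 37.9 CPM in fl/fl IRI and 51.2 ± 6.68 CPM in fl/fl sham (1.01 ± 0.21, adjusted p = 0.00647). F3, tissue factor, the starter of the extrinsic pathway, averaged 53.1 ± 22.5 CPM in fl/fl IRI and 24.8 ± 4.86 CPM in fl/fl sham (1.10 ± 0.27, adjusted p = 0.0123), with an adjusted p of 0.0507 without fl/fl IRI 3. The prothrombin gene F2 and the factor genes F9, F11 and F12 were too low to test. In iGKO kidneys 0 of 18 were called, with a median of 0.04.

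Some receptors of fibrinogen and fibrin were higher. Of 11 tested genes, 5 were higher and 0 lower in fl/fl after IRI, against 8.46% and 7.01% of all tested genes. The median log2 fold change of the 11 was 1.01, and 3 were called without fl/fl sham 2, without fl/fl sham 3 or without fl/fl IRI 3. Itga5, the integrin α5 gene, averaged 69.2 ± 21.3 CPM in fl/fl IRI and 18.2 ± 2.69 CPM in fl/fl sham (1.92 ± 0.26, adjusted p = 0.000636). The adhesion molecule Icam1, which fibrinogen can bridge to leukocytes, rose by 1.36 ± 0.20 (adjusted p = 0.00103) and Itgb3, the β3 chain of the platelet and endothelial fibrinogen receptors, by 2.32 ± 0.42 (adjusted p = 0.00272). In iGKO kidneys Itga5 was at 1.22 ± 0.25 (adjusted p = 0.217), and 0 of 11 were called.

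Some genes whose proteins share the fibrinogen-like domain passed the test, in either direction. Of 13 tested genes (16 listed), 2 were higher and 3 lower in fl/fl after IRI, against 8.46% and 7.01% of all tested genes. The median log2 fold change of the 13 was -0.72. The total of 5 became 1, 3, 2 and 1 without fl/fl sham 1, 2, 3 and 4, and 2 without fl/fl IRI 3 or without fl/fl IRI 4. The matrix protein gene Tnc, tenascin C, kept its call throughout, with 75.9 ± 55.6 CPM in fl/fl IRI and 11.2 ± 2.66 CPM in fl/fl sham (2.75 ± 0.43, adjusted p = 0.00122), and stood at 73.2 ± 30.4 CPM in iGKO IRI and 17.2 ± 6.46 CPM in iGKO sham (2.09 ± 0.42, adjusted p = 0.217). In iGKO kidneys 0 of 13 were called.

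Markers of other cells moved in the same samples. In fl/fl after IRI, 8.46% of all tested genes were called higher and 7.01% lower. Neutrophil markers were higher for 7 of 7 tested genes (8 listed) in fl/fl after IRI (median log2 fold change 3.97). They summed to between 10.9 and 36.5 CPM in iGKO IRI, between 25.1 and 225 CPM in fl/fl IRI, between 2.49 and 19.1 CPM in iGKO sham and between 5.45 and 12.1 CPM in fl/fl sham, with Ly6g at 0 in fl/fl sham. Macrophage markers were called for 0 of 8 (median 0.44). They summed to 98.1 to 960 CPM in fl/fl IRI, highest in library 1, and to 146 to 387 CPM in fl/fl sham. Of 10 injured tubule markers, 8 were higher in fl/fl after IRI (median 3.65), among them the secreted chaperone gene Clu (2.64 ± 0.32, adjusted p = 0.000556) and the repair factor Sox9 (5.13 ± 0.72, adjusted p = 0.000803). Sox9 had 12.2, 36.6, 67.6 and 224 CPM in fl/fl IRI, highest in library 4, against 3.21 to 5.74 CPM in iGKO IRI, 1.23 to 4.89 CPM in iGKO sham and 1.90 to 3.24 CPM in fl/fl sham. Krt20, with 10.3, 115, 475 and 894 CPM in fl/fl IRI libraries 1 to 4, and Plin2, with 183, 1636.5, 454 and 4701.5 CPM, were also highest in library 4. Like the chains, Sox9, Krt20 and Plin2 were lowest in library 1. Clu had 610, 1668.9, 2197.2 and 921 CPM in fl/fl IRI libraries 1 to 4 and was highest in library 3, not in library 4, where the chains were highest. Havcr1, Spp1, Lcn2, Vcam1, Cdh6 and Vim were highest in library 3 as well. Of 12 kidney segment markers, 6 were lower and 0 higher (median -1.02), such as the loop transporter Slc12a1 at -2.18 ± 0.39 (adjusted p = 0.00281), with 10 lower without fl/fl IRI 1 and 3 with the pair of groups fitted alone. In iGKO kidneys 0 genes of these 4 lists were called after IRI, with medians of 1.44 for neutrophil, 0.99 for macrophage, 0.81 for injured tubule and -0.35 for segment markers. The part of these cell and segment changes in the chain levels was not tested.

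Between genotypes after IRI few genes of these lists passed. edgeR called 153 of 17972 genes (0.851%; 0.178% higher). That count was 0 without fl/fl sham 4, without replicate 3 or 4 of fl/fl IRI, or without replicate 1, 2 or 3 of iGKO IRI. It was 2495 without fl/fl IRI 1 and 27 to 235 without any 1 of the others. Plaur was lower in iGKO at 16.6 ± 5.79 CPM in iGKO IRI and 73.3 ± 45.2 CPM in fl/fl IRI (-2.15 ± 0.39, adjusted p = 0.0325), and Clcf1 at 14.1 ± 1.84 CPM in iGKO IRI and 79.1 ± 56.3 CPM in fl/fl IRI (-2.48 ± 0.45, adjusted p = 0.034). Stat3 and Lcn2 were called lower too, 6 of 10 injured tubule markers were lower, and Tnxb, a tenascin with a fibrinogen-like domain, was higher. The calls on these genes are lost in the settings in which no gene was called.

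Among the genes beside the fibrinogen cluster, none was called higher in fl/fl kidneys after IRI. Of the 3 nearest protein-coding genes on each side, Npy2r, Rbm46 and Dchs2 were too low to test. Plrg1, a splicing factor gene next to Fgb, averaged 21.8 ± 3.15 CPM in iGKO IRI, 28.2 ± 5.76 in fl/fl IRI, 22.0 ± 5.51 in iGKO sham and 22.0 ± 1.5 in fl/fl sham, and was not called in fl/fl after IRI (0.36 ± 0.20, adjusted p = 0.227). Lrat, the retinol acyltransferase gene beside Fgg, was lower in fl/fl IRI at 1.21 ± 0.532 CPM than in fl/fl sham at 3.54 ± 1.06 CPM (-1.55 ± 0.44, adjusted p = 0.0271). That call was lost without fl/fl sham 1, 3 or 4 or without fl/fl IRI 3 or 4, at adjusted p of up to 0.0856. Sfrp2, the last of these neighbours, was not called (-1.31, adjusted p = 0.271). A long noncoding RNA, Gm30097, overlaps Fgg on the opposite strand and had 6 to 53 reads per library, beside 170 to 25810 reads for Fgg. Whether counting used strand is not given in the sources used here.

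Across the 16 libraries, the genes most like the chains were found by Pearson's r with the mean log2 CPM of the 3 chains, over 15656 genes of at least 1 CPM on average. The first 10 were Acat3, Nek6, Gm16098, Mmp7, Edn1, Plpp5, Nfkbiz, Spp1, Litaf and Atg7, with r between 0.93 and 0.95. They include Edn1, the gene of the vasoconstrictor endothelin-1 (r = 0.94), Mmp7, the matrix protease matrilysin (r = 0.94), Spp1, osteopontin (r = 0.94), and Nfkbiz, a nuclear regulator of NF-κB targets (r = 0.94). Spp1 averaged 1881.4 ± 614 CPM in iGKO IRI, 6599.2 ± 3037.5 in fl/fl IRI, 1082.8 ± 455 in iGKO sham and 677 ± 300 in fl/fl sham. Nfkbiz averaged 34.3 ± 3.42 CPM in iGKO IRI, 96.9 ± 43.7 in fl/fl IRI, 26.2 ± 3.55 in iGKO sham and 20.3 ± 4.08 in fl/fl sham. These genes were picked for following the chains over the same libraries, so the order of their group means is no separate finding. Within the 8 sham libraries r was 0.56 to 0.87 for these 10 genes. Ranking by Spearman's rho kept 3 of the 10, using the IRI libraries only kept 1, and leaving out 1 library at a time kept 5 to 10.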

How the data were processed

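Kidney cortex RNA was depleted of ribosomal RNA and made into stranded libraries, per the labels' protocols. The deposited file holds whole-number counts of reads per gene, not normalized, which the authors made with tools that include cutadapt 1.16, STAR 2.7.9a and featureCounts 1.6.3 on GRCm39, per the submitters' processing notes. Tool roles, the annotation release and the strand setting of counting are not given in the sources used here.

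Library sizes were scaled by TMM, and genes were filtered with filterByExpr by group. All 16 libraries were fitted with 1 coefficient per group in edgeR 4.0.16 (R 4.3.3; quasi-likelihood test). The fit was tested on simulated data in which all genes had the same dispersion, which was not set to the spread of the chains. The p-values were adjusted by Benjamini-Hochberg over all tested genes, with 0.05 as the threshold for calling a gene. Within-library ratios used log2 of counts plus 0.5 and exact two-sided permutation tests of 4 against 4. Counting intervals are exact binomial at 95%. The alternatives were relative log expression factors, no filter, a replicate block, fitting the pair of groups alone, DESeq2 1.42.0, and leaving out each library. Samples all carried 1 batch label. Lengths and gene neighbours came from GENCODE M21 (GRCm38), and promoters from RefSeq.

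Named genes were the chains, up to 4 tested members of smallest p from each gene list per IRI comparison, the 10 genes most like the chains, the neighbours, Degs1, and fixed hepatocyte and platelet markers. Other members of the lists were named for being too low to test, for their call between genotypes or for their order over libraries. These, and Havcr1 and Ttr, were chosen after their values were seen. The members and lists were chosen with earlier results of these data known. Some members of the lists are not reported here.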

Additional observations from a re-analysis of the deposited data

Results flagged for a closer look

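In 28 groups of 4 libraries examined for Dixon's gap, 3 held a library far from the other members of its group, where chance flags about 1 in 20 groups. Fgb stood at 21.0 CPM in iGKO sham 2, against 4.51 to 6.31 CPM in the other iGKO sham libraries. The number of Fgb reads per 100 Fgg reads was 36.5 in fl/fl sham 2, against 8.82 to 12.2 in the other fl/fl sham libraries. The summed level of the 18 hepatocyte markers was 349 CPM in fl/fl IRI 3, against 80.5 to 93.9 CPM in the rest of its group.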

How the results depend on the processing

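The calls of Fga, Fgb and Fgg in fl/fl after IRI held under each alternative run, with log2 fold changes of 3.61 to 4.81, 5.20 to 6.43 and 3.57 to 5.11 when 1 library was left out. For iGKO minus fl/fl after IRI, Fga passed with no filter (-2.58, adjusted p = 0.0306) and by DESeq2 (-2.60, adjusted p = 0.0191), as did Fgb (-2.97, adjusted p = 0.0335, and -2.99, adjusted p = 0.023). With 1 library left out, these differences ran from -3.35 to -1.79 for Fga, -3.95 to -2.19 for Fgb and -3.27 to -1.55 for Fgg, and the interactions from -4.27 to -2.71, -4.93 to -3.17 and -4.48 to -2.77. Each passed without fl/fl IRI 1. The cause was not tested.

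Genes called in fl/fl after IRI numbered 2779, 1526 with the pair of groups fitted alone, and 1452 (without fl/fl sham 3) to 4335 (without fl/fl IRI 1) with 1 library left out, with 1691, 1597, 1459 and 1850 without fl/fl sham 1, fl/fl sham 4, fl/fl IRI 3 and fl/fl IRI 4. In iGKO after IRI 0 were called, 4 with no filter, 43 by DESeq2 and 0 to 1 with 1 library left out. For iGKO minus fl/fl after IRI the 153 calls became 352 with no filter, 945 by DESeq2, 0 with the pair alone, 0 without both fl/fl IRI 3 and iGKO sham 4 (added after seeing the data), and 0 to 2495 with 1 library left out. For the interaction 0 were called, 15 with no filter, 113 by DESeq2 and 0 to 776 with 1 library left out.

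Whether replicate numbers pair the samples is not settled. Deviations from group means correlated at -0.335 to 0.399 (median 0.0152) in 24 same-number pairs. In 72 different-number pairs they correlated at -0.377 to 0.346 (median -0.00435). Of 16 libraries, 7 had their best correlate in another group under the same number. With the replicate block the calls were 0 for iGKO minus fl/fl after IRI and 1 for the interaction, and fl/fl log2 fold changes after IRI were 4.31, 6.06 and 4.37 for Fga, Fgb and Fgg. An exact sign-flip permutation test of the ratios over 4 pairs cannot go below p = 0.125. Where a left-out library leaves 3 in a group, the spread is pooled over all groups. Each chain had at least 10 reads in all 16 libraries, so requiring that number removed no library. It therefore cannot show whether depth limits the ratios. The Fgb count was as low as 15 reads in fl/fl sham 1. The exact counting interval of that library ran from 2.58 to 7.82 Fgb reads per 100 Fga reads.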
